A study of Mus musculus with 35 samples.

Results

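Transcription factors that place cells along the limb and its mesenchyme were followed across mouse bone marrow stromal cells, tail tip fibroblasts, the iPS clones made from them and ES cells. The genes were Tbx15, Tbx4, Tbx5, Pitx1, Meis1, Meis2, Shox2, Prrx1, Prrx2 and Emx2. They were chosen by name because several of them differed between the source cell arrays, so those differences are given as a description and not as a finding. All probes that carry a member name were taken, which gave 23 of 41174 gene probes for 10 of 27962 genes. No probe was named Meis2, and its 3 probes were found under the older name Mrg1.

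The 35 arrays held 1 labelled RNA each. The source cells were 3 arrays of 1 sample each. PaS cells (CD45-Ter119-PDGFRa+Sca-1+, a mesenchymal stem cell fraction) and OP cells (CD45-Ter119-PDGFRa-Sca-1-, osteo-progenitors) came from crushed femurs and tibias, and TTF were tail tip fibroblasts, all from 6-week-old mice that carried a Nanog-GFP-Puro reporter. From each source, 5 clones (the 4F-PaS-iPS, 4F-OP-iPS or 4F-TTF-iPS group) were made with retroviral Oct3/4, Sox2, Klf4 and c-Myc, and 5 clones (the 3F-PaS-iPS, 3F-OP-iPS or 3F-TTF-iPS group) without c-Myc. A DsRed retrovirus was added to every transduction, and clones that were GFP-positive and DsRed-negative were picked, puromycin being the selection. The clones were kept on SNL feeder cells, an embryonic fibroblast line, in medium with LIF. The ES arrays were 1 of EB-3 and 1 of RF8. A clone is a line grown from 1 colony, and how many mice gave the source cells is not given in the sources used here, so the spread between clones is not a spread between animals. Each source had 1 array, so no comparison with a source array has a replicate check.

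T-box genes encode transcription factors that bind DNA through the T domain. In the embryo Tbx5 marks the forelimb bud and Tbx4, together with the homeodomain factor Pitx1, the hindlimb bud, while Meis1 and Meis2 mark the part of the bud nearest the trunk and Prrx1 and Prrx2 mark limb and face mesenchyme. Adult stromal cells and fibroblasts are known to keep part of this positional pattern, and pluripotent cells are known to express little of it.

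The probes that carry the results are shown by their first 30 of 60 bases, with the position that the array design gives on mouse build mm7. They are shown because each value below is the brightness of 1 such oligo, and genes with several probes were read by the one with the highest mean over all arrays.
Prrx1, chr1:163209258-163209317, minus strand: actgaaggccaaggaatatagtttacagag
Prrx2, chr2:30888384-30888444, plus strand: tgttgggtgctggaagcagttgaacaagtc
Pitx1, chr13:54912967-54913026, minus strand: taaatctgtctatatcaacttgtccatgta
Tbx15, chr3:99149413-99149472, plus strand: aagtgaaactgggtgcaagctaaaattttt
Tbx5, chr5:119118064-119118123, plus strand: aaatacctacctccgtcatgtgagatgtct
Meis2, chr2:115604178-115604237, minus strand: aaggagcaagagaatactgtaacaaacttc
Meis2, the third probe, chr2:115736940-115736999, minus strand: agaatgactcttcggtttctagctaccagt
The third Meis2 probe lies apart from the first on the same strand, and it gave other results, as described with Meis2. Which exon each oligo lies in was not analysed here, since the genome of that build was not used.

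Promoter sequence, 250 bases before the start site on GRCm38.p6, was found in RefSeq for 7 of the 10 genes and not for Tbx15, Tbx5 and Pitx1. The paralogs Prrx1 and Prrx2 are shown because both genes were detected in all source cells while their promoters differ in base composition. Capitals mark the only match in the 7 promoters to any of the 4 motifs searched on both strands, which were TGACAG (Meis), TAATCC (Pitx), TAATTA (paired-type homeodomain) and AGGTGTGA (T-box).
Prrx1, chr1:163313651-163313900, minus strand: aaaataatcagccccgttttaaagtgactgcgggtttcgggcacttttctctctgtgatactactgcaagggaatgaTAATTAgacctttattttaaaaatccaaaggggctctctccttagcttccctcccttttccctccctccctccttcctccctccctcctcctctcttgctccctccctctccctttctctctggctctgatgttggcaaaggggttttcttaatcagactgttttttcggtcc
Prrx2, chr2:30845117-30845366, plus strand: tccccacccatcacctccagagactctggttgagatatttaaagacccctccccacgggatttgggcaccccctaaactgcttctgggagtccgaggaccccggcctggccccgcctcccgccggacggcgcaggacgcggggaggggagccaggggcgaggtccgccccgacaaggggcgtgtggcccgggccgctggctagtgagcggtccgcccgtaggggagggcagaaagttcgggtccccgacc
The Prrx2 promoter held 21 CG dinucleotides and the Prrx1 promoter 4, against a median of 6 over 32851 mouse promoters. TAATTA was present in 4.84% of all those promoters, TGACAG in 15.86%, TAATCC in 6.252% and AGGTGTGA in 1.12%.

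Values are given as log2 of the background-corrected intensity, less the 75th percentile of its array, so 0 is the level at that percentile and each step of 1 is a 2-fold step. A probe was counted as detected on an array where the scanner software marked it well above background. Levels are compared between arrays for 1 probe and never between probes.

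Some arrays stood apart, and the results that rest on them are given with and without them. In 4F-OP-iPS #1 and #3 and 4F-TTF-iPS #1, Nanog was not well above background, 5 of 8 pluripotent markers were detected, and the summed level of the 8 was between 10.95 and 11.48. The sum in 4F-OP-iPS #2 was 17.81, with Nanog at -3.30 and all 8 detected. The other 26 clones lay between 108.7 and 579.8, and the ES arrays at 330.5 (RF8) and 634.2 (EB-3). On the TTF array the blood genes Emr1 (6.74), Ptprc (4.14) and Itgam (0.95) were high, and the summed level of 6 blood genes was 126.9 against 0.0615 in PaS, 0.0634 in OP and at most 0.434 in the clones. Pdgfra, the marker that OP cells were sorted against, was 1.58 on the OP array and 0.98 on the PaS array, while Ly6a, the gene of Sca-1, was 3.54 and 5.58. The osteoblast genes Ibsp (3.66) and Bglap1 (4.25) were high on the OP array and at -7.57 and -0.99 on the PaS array. All clones were scanned in 1 session on 8 slides, and the source arrays shared a slide and a session with EB-3 but with no clone. Source and session therefore cannot be told apart in any comparison of source cells with clones. In bulk RNA, fewer cells of a type and less RNA per cell cannot be told apart.

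**Figure D1:**
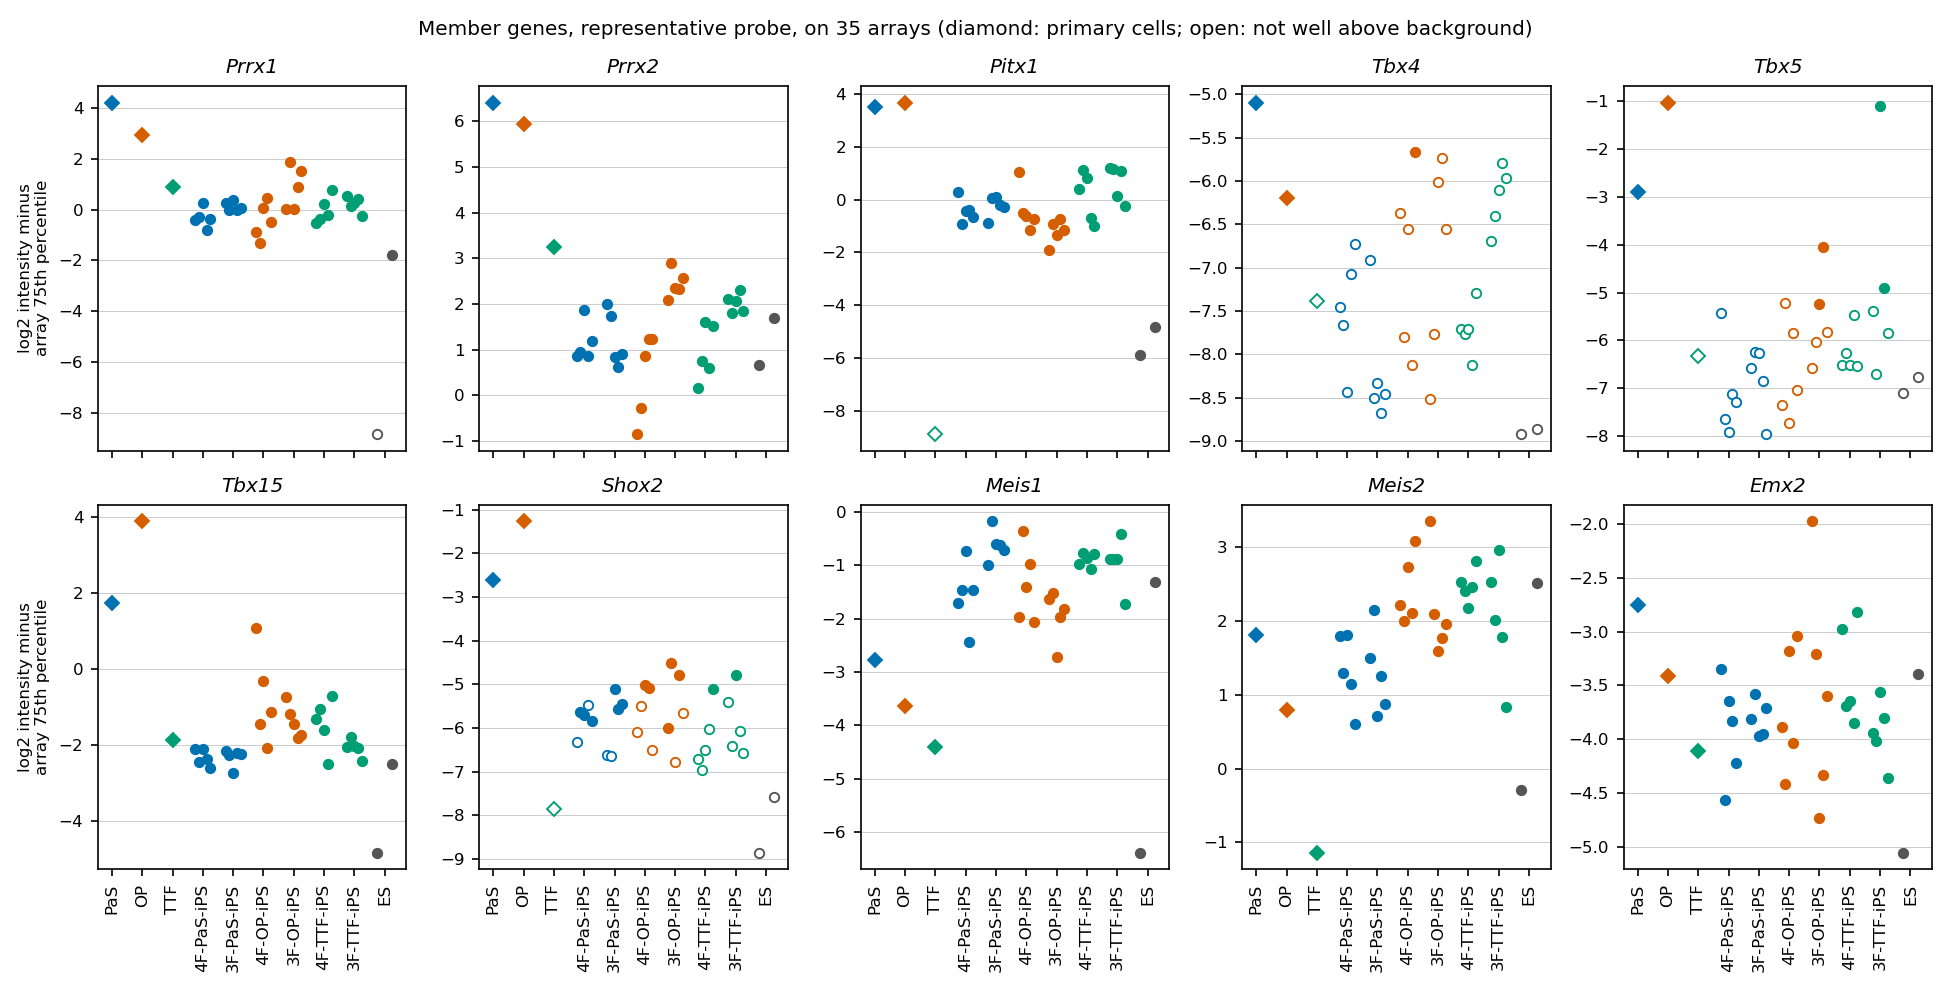
Each panel shows 1 gene by its representative probe, with the log2 intensity relative to the array's 75th percentile on the y axis and the sample groups on the x axis. Diamonds are the 3 source arrays, circles are clones or ES arrays, and open symbols were not well above background. PaS and OP lie above all 30 clones for Prrx1, Prrx2, Pitx1, Tbx15 and Shox2, and below all of them for Meis1.

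In the source cells, PaS exceeded TTF by at least 2-fold for all 10 genes, OP exceeded TTF for 8, and PaS and OP differed from each other in both directions. These counts use the measured values. With signals not above background raised to the lowest signal above background on their array, OP exceeded TTF for 7, since the bound for Tbx4 was at least 1.34-fold, and PaS still exceeded TTF for all 10. The genes were chosen with this contrast in view, so the counts support nothing. Of all probes, 19.5% were at least 2-fold higher in PaS than in TTF and 22.6% higher in TTF than in PaS. For OP against TTF the shares were 21.5% and 19%. PaS exceeded OP for 3 members (Tbx4, Meis2 and Prrx1) and OP exceeded PaS for 3 (Tbx15, Tbx5 and Shox2), where 12.7% and 18.2% of all probes did so. With normexp background correction the count for PaS over TTF fell to 6 of 10. The blood genes on the TTF array moved with each difference from TTF, and their part was not tested. Between PaS and OP the summed blood level was near equal, at 0.0615 and 0.0634.

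The mesenchymal homeodomain genes Prrx1 and Prrx2 were detected in all 3 sources and were higher in bone marrow cells than in tail cells. Prrx1 was 4.20 in PaS, 2.93 in OP and 0.90 in TTF, a 9.85-fold difference between PaS and TTF and a 4.07-fold difference between OP and TTF. Prrx2 was 6.41 in PaS, 5.95 in OP and 3.24 in TTF, 8.99-fold and 6.54-fold above TTF. PaS and OP were thus close for Prrx2, at 1.38-fold, and 2.42-fold apart for Prrx1. Of the 6 Prrx1 probes, 5 were higher in PaS than in OP. The sixth, at -5.90 in PaS and -5.04 in OP, was higher in OP by 1.82-fold.

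Pitx1, which is needed for hindlimb identity, was measured in the bone marrow cells and not in the tail cells. It was 3.52 in PaS and 3.68 in OP and was not well above background in TTF, at -8.89. The bound was at least 1127-fold for PaS over TTF and at least 1263-fold for OP over TTF. PaS and OP differed by 1.12-fold.

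The limb T-box genes Tbx4 and Tbx5 were detected in the bone marrow cells and not in the tail fibroblasts. Tbx4, the hindlimb gene, was -5.10 in PaS and -6.19 in OP and was not well above background in TTF, at -7.39. Its second probe gave -3.62, -5.43 and -6.87 in the same order, the last again not above background. Tbx5, the forelimb gene, was -2.90 in PaS and -1.02 in OP, although both came from hindlimb bones. TTF, at -6.32, was not well above background for Tbx5, which put PaS at least 10.7-fold and OP at least 39.2-fold above it. The second Tbx5 probe kept the order of OP (-4.76) over PaS (-6.37).

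Tbx15, a T-box gene of the limb and trunk skeleton and dermis, was 3.88 in OP, 1.74 in PaS and -1.89 in TTF. OP exceeded PaS by 4.42-fold and TTF by 54.5-fold, and PaS exceeded TTF by 12.3-fold. All 3 probes gave this order, with OP over PaS at 4.69-fold by the second probe and 5.73-fold by the third. Shox2, a homeodomain gene of the proximal limb, was -1.27 in OP, -2.60 in PaS and not well above background in TTF, at -7.86. OP was at least 40.9-fold and PaS at least 16.2-fold above TTF.

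The TALE homeodomain genes Meis1 and Meis2 and the homeodomain gene Emx2 had smaller ranges. Meis1 was -2.78 in PaS, -3.64 in OP and -4.40 in TTF, a 3.07-fold difference from PaS to TTF. On its second probe PaS was -6.37, TTF was -6.24 and OP was not well above background. Meis2 was 1.81 in PaS, 0.80 in OP and -1.14 in TTF, 7.73-fold from PaS to TTF and 2.01-fold from PaS to OP, just past the 2-fold line. The third of its probes turned the order of PaS (-4.83) and OP (-2.67), a 4.48-fold difference the other way, and put PaS 1.31-fold above TTF. Emx2, a gene of the limb girdle and urogenital tract, was -2.75 in PaS, -3.41 in OP and -4.11 in TTF. PaS exceeded TTF by 2.58-fold, and the differences of OP from PaS and from TTF were 1.58-fold and 1.63-fold, just below the line.

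Related genes were counted from 3 lists. Of 21 limb patterning genes, 20 had a probe. In PaS 11 of 18 measured genes were at least 2-fold above TTF and 0 below, and in OP 11 were above and 2 below, against the same shares of all probes as for the members. With dim signals raised to the lowest signal above background, Lmx1b and En1 left these counts, which were then 10 above and 0 below in PaS and 10 above and 1 below in OP. The largest in PaS over TTF were Msx2 (83.9-fold), Isl1 (at least 46.4-fold), Dlx5 (at least 15.5-fold) and Hand2 (at least 11.9-fold), all homeodomain or basic helix-loop-helix factors of the limb bud. In OP over TTF they were Dlx5 (at least 76.6-fold), Grem1 (14.0-fold), a secreted BMP antagonist, and Isl1 (at least 10.3-fold). Between PaS and OP, 4 of 17 were higher in PaS and 2 in OP, with Fgf10 (24.2-fold) and Msx2 (10.2-fold) the largest, where 12.7% and 18.2% of all probes were. The median log2 difference of the list was 1.75 for PaS over TTF and 1.49 for OP over TTF, against -0.02 and 0.08 over all probes.

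Of 14 mesenchyme transcription factors, 12 could be measured, and 8 were above TTF in PaS and 8 in OP, with 0 and 2 below, where 19.5% and 21.5% of all probes were above. Foxd1, a forkhead factor, was at least 103.5-fold above TTF in PaS and at least 498-fold in OP. Sox9, the regulator of cartilage formation, was 16.2-fold above in PaS and 112-fold in OP. Foxc2 and Foxc1 were 47.3-fold and 23.8-fold above in PaS, and 19.2-fold and 55.9-fold in OP. Against OP, PaS was higher for 2 and lower for 5, where 12.7% and 18.2% of all probes were. The 11 TALE partners were Meis3 and the Pbx, Pknox, Tgif and Irx genes, whose products pair with or resemble Meis1 and Meis2. Of these, 4 were above TTF in PaS and 0 below, and 4 were above and 1 below in OP. PaS was above OP for 3 and below for 2, beside the same shares of all probes. Irx3 was -3.75 in PaS and -5.15 in OP and was not well above background in TTF, at -8.54, which put PaS at least 7.32-fold and OP at least 2.77-fold above TTF.

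Each source was set against its own clones, over the members detected on the source array or in all 10 of its clones. For PaS and OP, Tbx4, Tbx5 and Shox2 entered only through the source array, so they could scarcely count as below. For TTF they did not enter. The genes were chosen with the source values in view, so the counts of the 3 sources are a description. PaS lay above all 10 of its clones for 8 of the 10 genes, all but Meis1 and Meis2, and below all 10 for Meis1. Of all probes, 28.5% lay above and 32.6% below. With normexp background correction the counts were 4 above and 2 below. OP lay above all 10 of its clones for 6 genes (Tbx15, Tbx5, Pitx1, Shox2, Prrx1 and Prrx2) and below for Meis1 and Meis2, against 30% and 26.5% of all probes. TTF, in which 7 members could be compared, lay above all its clones for Prrx1 (9 of 10 on the second and the third probe) and Prrx2, and below for Pitx1, Meis1 and Meis2, against 32.7% and 34.1%.

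**Figure D2:**
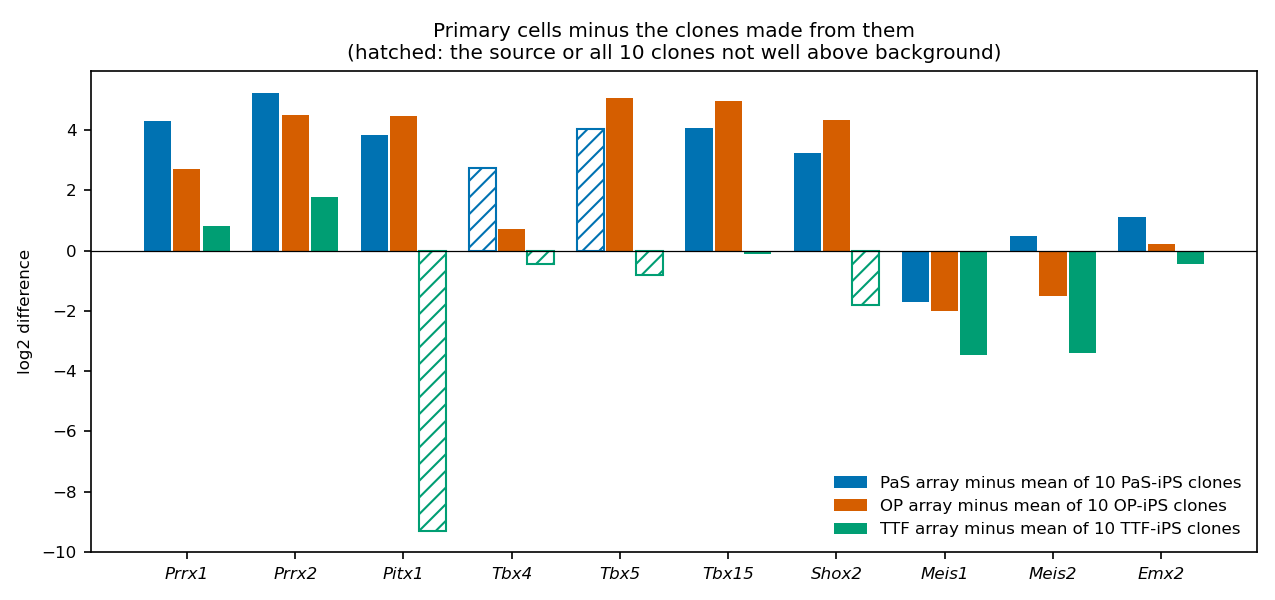
Bars give the log2 difference between each source array and the mean of the 10 clones made from it, by gene, with hatched bars where the source or all 10 clones were not well above background. The bars for PaS and OP point up for Prrx1, Prrx2, Pitx1, Tbx5, Tbx15 and Shox2, and the bars for Meis1 point down in all 3 sources.

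Among the members measured on both sides, Prrx2 differed most between PaS and its clones. It was 37.3-fold higher in PaS than in the mean of the PaS-iPS clones (1.19 ± 0.50, SD, n = 10), 22.7-fold higher in OP than in OP-iPS clones (1.45 ± 1.25, SD, n = 10) and 3.39-fold higher in TTF than in TTF-iPS clones (1.48 ± 0.73, SD, n = 10). Prrx1 was 19.7-fold, 6.58-fold and 1.75-fold above the clones in PaS, OP and TTF. The clone means of Prrx1 were -0.10 ± 0.37 in the PaS-iPS, 0.21 ± 1.01 in the OP-iPS and 0.09 ± 0.43 in the TTF-iPS clones (SD, n = 10 each). For both genes the 3 clone means lay within 1 SD of each other. The sources spanned over 3 log2 steps. Since the genes were chosen with the source values in view, the wider span of the sources is a description only.

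For Pitx1 the clones of the 3 sources lay closer together than the sources, whose values were in view when the genes were chosen. The means were -0.33 ± 0.41 in PaS-iPS, -0.80 ± 0.77 in OP-iPS and 0.40 ± 0.82 in TTF-iPS (SD, n = 10 each). PaS was 14.4-fold and OP 22.3-fold above its clones, and the TTF-iPS clones were at least 129.6-fold above TTF. Every one of the 30 clones was detected for Pitx1. The lowest of the 10 TTF-iPS clones was -1.003, against a TTF value of -8.89 that was not above background.

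Meis1 went the other way in every source. The clone means were -1.09 ± 0.67 in the PaS-iPS, -1.64 ± 0.64 in the OP-iPS and -0.93 ± 0.33 in the TTF-iPS clones (SD, n = 10 each), which put PaS 3.23-fold, OP 3.98-fold and TTF 11.1-fold below. The 3 source arrays lay below all 30 clones, whose range was -2.72 to -0.18, and the second probe gave the same. Meis2 was 2.82-fold lower in OP and 10.5-fold lower in TTF than in their clones, and PaS was 1.41-fold above its own. The third of its probes turned both the OP and the PaS direction, with OP 1.34-fold above its clones (above 8 of 10) and PaS 1.97-fold below (below 8 of 10), and kept that of TTF, at 4.88-fold below.

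Tbx15 was 16.8-fold higher in PaS and 31.4-fold higher in OP than in their clones, and within the range of its clones in TTF. Tbx4, Tbx5 and Shox2 were near background in the clones. Tbx4 was detected in 1 of 30 clones, 4F-OP-iPS #5 at -5.66, and on its second probe in 1 other, 4F-OP-iPS #1 at -5.90. Tbx5 was detected in 4 clones, 3F-OP-iPS #3 (-5.24) and #4 (-4.05) and 3F-TTF-iPS #3 (-1.10) and #4 (-4.90). Shox2 was detected in 13 of 30 clones at -5.99 to -4.52, 6 of them PaS-iPS, 5 OP-iPS and 2 TTF-iPS. Because they were not well above background on every array of a clone or ES group, these 3 genes were not tested further. Emx2 was detected in all 30 clones at -4.73 to -1.98, and PaS exceeded the mean of its clones by 2.16-fold. Its second probe went another way, with PaS above 7 of its 10 clones, at 1.09-fold over their mean, and OP and TTF not well above background.

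The comparisons between clones were fitted with limma over 27623 probes in 7 groups, and a call required both a 2-fold difference and, after adjustment by Benjamini and Hochberg over all probes, a p under 0.05. Of the 10 members, 7 were tested, by 15 probes. They varied among clones more than most probes, with SDs over 30 clones of 0.57 (Emx2) to 0.86 (Prrx2). The median SD of all tested probes was 0.47, and 60.8% to 81.1% of them had a smaller SD than the 7 members.

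Between PaS-iPS and OP-iPS clones, 1 of 7 members was called, Tbx15, where 1.6% of all tested probes were. Tbx15 was known to differ here when the genes were chosen, so its values describe these clones and are no independent support. In 4F-PaS-iPS #1 to #5 Tbx15 was -2.12, -2.46, -2.11, -2.38 and -2.60, and in 3F-PaS-iPS #1 to #5 it was -2.16, -2.29, -2.76, -2.21 and -2.25. In 4F-OP-iPS it was 1.08, -1.46, -0.32, -2.10 and -1.15, and in 3F-OP-iPS -0.74, -1.20, -1.47, -1.83 and -1.76. All 10 OP-iPS clones thus lay above all 10 PaS-iPS clones, the nearest being 4F-OP-iPS #4 at -2.10 and 4F-PaS-iPS #3 at -2.11, with an SD of 0.22 in the PaS-iPS and 0.93 in the OP-iPS clones. Without the clones with low markers the SD of the OP-iPS clones was 0.47 (n = 7), and on the third probe the SDs of all 10 were 0.60 and 0.84. On that probe the groups overlapped, with PaS-iPS clones up to -4.97 and OP-iPS clones down to -5.58, and 6 of the PaS-iPS clones were above background. In 4F-TTF-iPS it was -1.31, -1.06, -1.62, -2.52 and -0.72, and in 3F-TTF-iPS -2.05, -1.79, -2.04, -2.09 and -2.44, overlapping both.

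The log2 difference of PaS-iPS from OP-iPS was -1.24 (SE 0.30, limma adjusted p = 0.0237), with -1.31 and -1.10 on the second and the third probe (limma adjusted p = 0.0154 and 0.0343). Within the slides that held both, it was -1.27, -2.17 and -1.26. At -2.17 the only OP-iPS clones were 4F-OP-iPS #1 and #2, and at -1.27 they included #3, all with low pluripotent markers. Only the slide at -1.26 held none of these. With slide as a fixed term it was -1.52 (limma adjusted p = 0.0437) and with slide as a random block -1.39 (0.0179). Without the 3 clones in which Nanog was dim it was -0.85 (limma adjusted p = 0.157), and without all 4 clones with low pluripotent markers -0.82 (0.106). Of the OP-iPS clones, those 4F clones with low markers held the values of 1.08, -1.46 and -0.32, so the direction remained while the call was lost. The call was also lost with normexp background correction (-0.75, limma adjusted p = 0.118) and without 4F-OP-iPS #3 (0.0579) or 3F-OP-iPS #1 (0.0573).

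**Figure D3:**
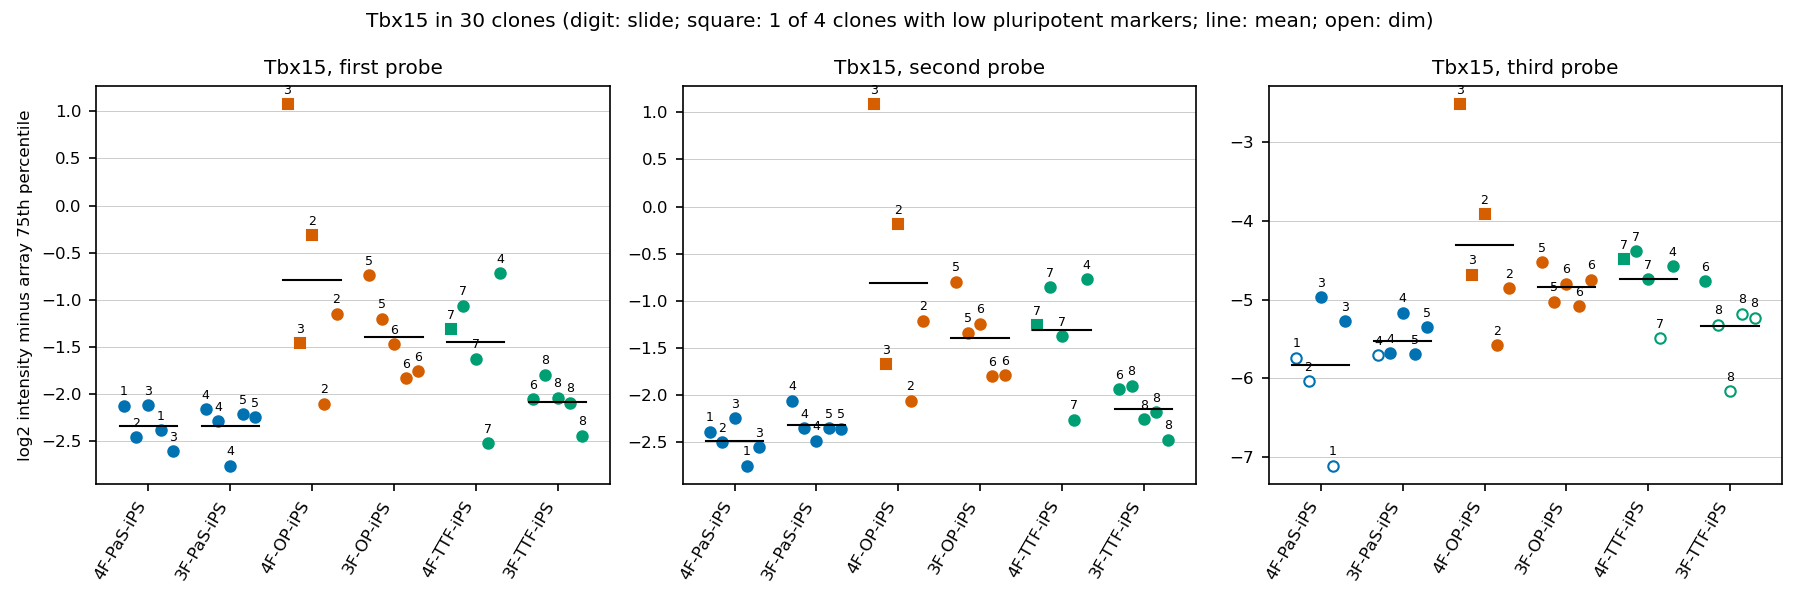
Tbx15 in the 30 clones by each of its 3 probes, with log2 intensity relative to the array's 75th percentile on the y axis, the slide as a digit, and squares for the 4 clones with low pluripotent markers. The line is the mean of 5 clones, and the PaS-iPS clones sit low in the range on the first 2 probes, from -2.76 to -2.07.

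Meis2 was the other member whose unadjusted p was under 0.05 here. In 4F-PaS-iPS it was 1.80, 1.30, 1.82, 1.15 and 0.61, and in 3F-PaS-iPS 1.50, 2.16, 0.71, 1.25 and 0.87. The 4F-OP-iPS clones had 2.22, 2.01, 2.74, 2.11 and 3.09, and the 3F-OP-iPS clones 3.35, 2.10, 1.59, 1.77 and 1.97. The groups overlapped in part, with 3F-PaS-iPS #2 at 2.16 above 6 OP-iPS clones. The log2 difference was -0.98 (SE 0.30, limma adjusted p = 0.0599), on the second probe -0.99 (0.0497, just under 2-fold) and on the third -0.77 (0.305). Within slides it was -1.35, -0.90 and -1.67, and with slide as a fixed term Meis2 was called, at -1.38 (limma adjusted p = 0.0443), as it was with slide as a random block (-1.09, 0.0497).

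Between PaS-iPS and TTF-iPS clones, 0 of 7 members were called, against 0.5% of all probes, and 2 had an unadjusted p under 0.05. In 4F-TTF-iPS Meis2 was 2.53, 2.41, 2.18, 2.46 and 2.81, and in 3F-TTF-iPS 2.53, 2.02, 2.96, 1.78 and 0.84. The log2 difference of PaS-iPS was -0.94 (limma adjusted p = 0.109). For Pitx1 it was -0.73 (limma adjusted p = 0.191). On the 1 slide that held both kinds of clone, the Meis2 difference was -1.36 and the Pitx1 difference 0.77, which is opposite in sign to the whole. That slide set 3F-PaS-iPS #1 to #3 against 4F-TTF-iPS #5 alone, so source and factor number cannot be told apart there.

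Between OP-iPS and TTF-iPS clones, 0 of 7 were called, against 0.0217% of all probes, and again 2 had an unadjusted p under 0.05. Pitx1 in 4F-OP-iPS was 1.06, -0.50, -0.61, -1.15 and -0.73, and in 3F-OP-iPS -1.91, -0.92, -1.33, -0.73 and -1.15. In 4F-TTF-iPS it was 0.41, 1.12, 0.83, -0.70 and -1.003, and in 3F-TTF-iPS 1.20, 1.15, 0.14, 1.08 and -0.24. The OP-iPS clones were mostly below 0 and the TTF-iPS clones mostly above, with 4F-OP-iPS #1 and 3 TTF-iPS clones as exceptions. The log2 difference was -1.20 (limma adjusted p = 0.191), and without 4F-OP-iPS #2 it was -1.18 and called (0.0316). The Tbx15 difference was 0.67 (limma adjusted p = 0.451).

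Between clones made with and without c-Myc, Prrx2 was the member that was called. In 4F-OP-iPS it was -0.84, -0.27, 0.87, 1.23 and 1.24, and in 3F-OP-iPS 2.09, 2.89, 2.36, 2.32 and 2.58. The ranges did not overlap, and 3F clones were 4.01-fold higher (log2 difference 2.00, SE 0.36, limma adjusted p = 0.00188). It was the only 1 of 7 members called in OP-iPS clones, against 4.51% of all probes. No slide held both 4F-OP-iPS and 3F-OP-iPS clones, so slide and factor number cannot be told apart in this comparison. With slide as a random block the difference was 2.22 (limma adjusted p = 0.021). A random block treats slide effects as noise, so this value does not separate slide from factor number. The 3 lowest 4F-OP-iPS values were those of the clones with low pluripotent markers. Without the 3 clones with dim Nanog the difference was 1.72 (limma adjusted p = 0.0236), and without all 4 it was 1.21 (0.182), so that the call was lost. The 4 muscle genes summed to 0.75 to 2.33 in 4F-OP-iPS and 2.02 to 6.15 in 3F-OP-iPS, with Myod1 detected in 0 of the 10 clones. The sort markers summed to 4.05 to 25.2 and 1.16 to 27.6, and the 6 osteoblast genes to 0.874 to 10.65 and 3.21 to 16.98. Of the osteoblast genes Bglap1 did not overlap (-4.01 to -2.135 and -1.98 to -1.22), while Runx2 and Alpl did. The part of these lists in the difference was not tested.

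In TTF-iPS clones Prrx2 was 0.16, 0.75, 1.62, 0.60 and 1.51 with 4 factors and 2.10, 1.81, 2.06, 2.31 and 1.85 with 3. Again the ranges did not overlap, and the log2 difference was 1.10 (SE 0.36, limma adjusted p = 0.0474), the only 1 of 7 members called, against 5.77% of all probes. With slide as a random block it was 1.11 (limma adjusted p = 0.408), with slide as a fixed term 1.42 (1) and without the 3 clones with dim Nanog 0.91 (0.101). The call was also lost with normexp background correction and without all 4 clones with low pluripotent markers. Marker sums of other cell types differed between the same clones. The 2 genes of the marrow sort markers (Pdgfra and Ly6a), both detected in all 10, summed to 8.97 to 25.1 in 4F-TTF-iPS and 2.37 to 5.59 in 3F-TTF-iPS. Of these only Ly6a was apart, at 2.45 to 4.46 and -0.67 to 0.36. Pdgfra overlapped, at 1.235 to 2.095 and 0.65 to 2.27. The 4 muscle genes, of which 2 to 3 were detected, summed to 0.98 to 2.26 and 3.26 to 6.45. Of the muscle genes Des and Acta1 were detected in all 10 clones, Myog in 1 and 3 of 5, and the defining gene Myod1 in 0. The 6 osteoblast genes summed to 1.47 to 5.95 in 4F-TTF-iPS and 4.85 to 18.4 in 3F-TTF-iPS. Of these Bglap1 did not overlap (-3.46 to -2.45 and -2.13 to -0.42), while Runx2 and Alpl did. The part of these lists in the Prrx2 difference was not tested. In PaS-iPS clones, all of which had high pluripotent markers, Prrx2 was 0.85, 0.96, 1.87, 0.87 and 1.19 with 4 factors and 2.01, 1.74, 0.85, 0.62 and 0.92 with 3. Here the ranges overlapped. In PaS-iPS 0 of 7 members were called between 3F and 4F clones by limma and 0 had an unadjusted p under 0.05, against 0.0181% of all probes called. These counts use the representative probe. The largest difference was that of Meis1, 0.94 higher in 3F clones (limma unadjusted p = 0.0854). On its second probe Meis1 was 1.275 higher (limma unadjusted p = 0.0106, adjusted p = 0.179).

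**Figure D4:**
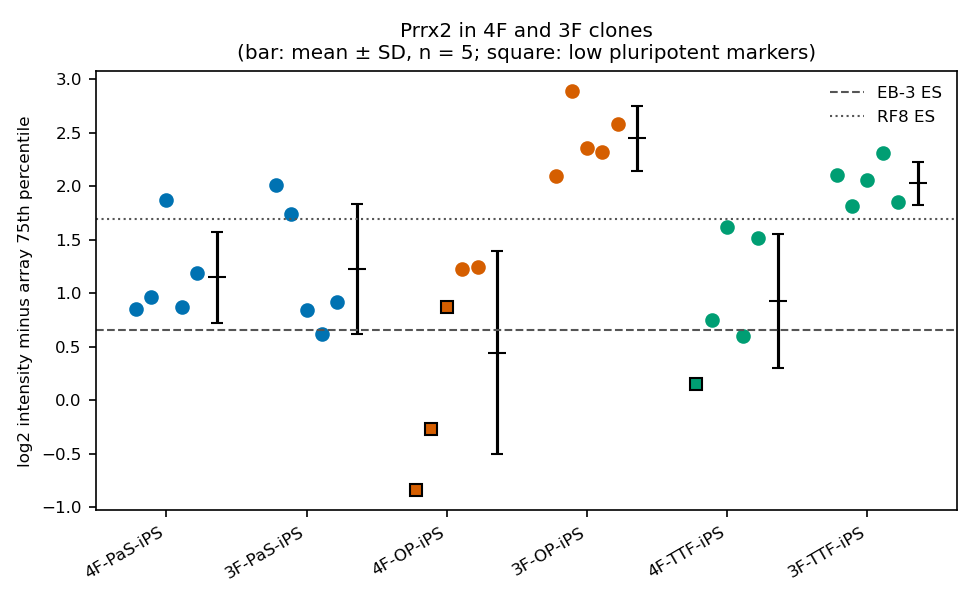
Prrx2 in 30 clones, with log2 intensity relative to the array's 75th percentile on the y axis and the 6 clone groups on the x axis. Bars give the mean and SD of 5 clones, squares mark the 4 clones with low pluripotent markers, and horizontal lines are the ES arrays at 0.66 and 1.69. All 3F-OP-iPS and 3F-TTF-iPS clones lie at 1.81 or higher, above every 4F clone of the same source.

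Whether the 3F difference itself varied between sources was tested as an interaction. For OP against PaS, 0 of 7 members were called by limma and 1 had an unadjusted p under 0.05, against 0.648% of all probes called. Prrx2 was that member, at a log2 difference of 1.93 (limma adjusted p = 0.06), and it was called with slide as a random block (2.36, 0.0366) but not with slide as a fixed term (2.85, 0.133). Without the 3 clones with dim Nanog it was 1.64 (limma adjusted p = 0.183), and without all 4 clones with low markers 1.14 (0.704). For TTF against PaS 0 were called and 0 had an unadjusted p under 0.05, against 0.583% of all probes called. For TTF against OP 0 were called and 1 had an unadjusted p under 0.05, against 0% of all probes. That was Pitx1, at 1.36 (limma adjusted p = 1).

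Against ES cells, the clones were higher for 4 of 7 members, Tbx15, Pitx1, Meis1 and Prrx1. Of all tested probes 36.2% were called and 17.2% were called higher in clones. The median log2 difference of the 7 members was 1.95, against -0.11 over all probes. Scan session and group cannot be told apart here, and the ES arrays differed from each other. EB-3 shared its session with the source arrays, and RF8 was alone in its own.

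Pitx1 was -5.90 in EB-3 and -4.84 in RF8, below all 30 clones, and the clones were higher by 5.13 on the log2 scale (limma adjusted p = 3.32e-09). Without EB-3 the difference was 4.60 (limma adjusted p = 5.57e-06). Without RF8 it was 5.66 and also called.

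Prrx1 was not well above background in EB-3, at -8.82, and was -1.78 in RF8. The clones were at least 101-fold above EB-3 and 3.62-fold above RF8, a log2 difference from the 2 ES arrays of 5.37 (limma adjusted p = 3.69e-06). Without EB-3 it was 1.86 (limma adjusted p = 0.0086). The clones ranged from -1.32 in 4F-OP-iPS #2 to 1.88 in 3F-OP-iPS #2. In 4F-PaS-iPS Prrx1 was -0.42, -0.29, 0.27, -0.79 and -0.39, in 4F-OP-iPS -0.87, -1.32, 0.04, 0.47 and -0.50, and in 3F-OP-iPS 0.00, 1.88, 0.02, 0.88 and 1.50. In the other 3 groups it spanned -0.01 to 0.37 (3F-PaS-iPS), -0.52 to 0.78 (4F-TTF-iPS) and -0.27 to 0.54 (3F-TTF-iPS).

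Fibroblast genes, which feeder cells also express, were low and high in the clones with the lowest and the highest Prrx1, and less closely tied to it in between. Of 17 such genes 15 to 17 were detected in each clone, with a summed level of 78.66 in 4F-OP-iPS #2, where Prrx1 was lowest, and 383.1 in 3F-OP-iPS #2, where Prrx1 was highest. The second lowest sum, 104.7 in 3F-OP-iPS #3, went with a Prrx1 of 0.02, and the near equal sums of 4F-OP-iPS #1 (159.8) and 3F-OP-iPS #1 (163.1) with -0.87 and 0.00. The median clone was at 171.6 and the highest, 4F-TTF-iPS #5, at 416.5. In EB-3, 8 of 17 were detected and the sum was 2.03, and in RF8 all 17 were detected and the sum was 159.9. In the sources the sum was 962.4 (PaS), 1729 (OP) and 788.2 (TTF). A sum of linear levels weighs the brightest genes most. In RF8 that was S100a4, at 6.88, with Col1a2 next at 3.56. In TTF it was S100a4 at 8.86, with Col1a2 next at 6.32. In the clones S100a4 ranged from 5.21 to 8.12. These sums are therefore not an even measure of all 17 genes. The part of feeder or other fibroblast RNA in the Prrx1 values was not tested.

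**Figure D5:**
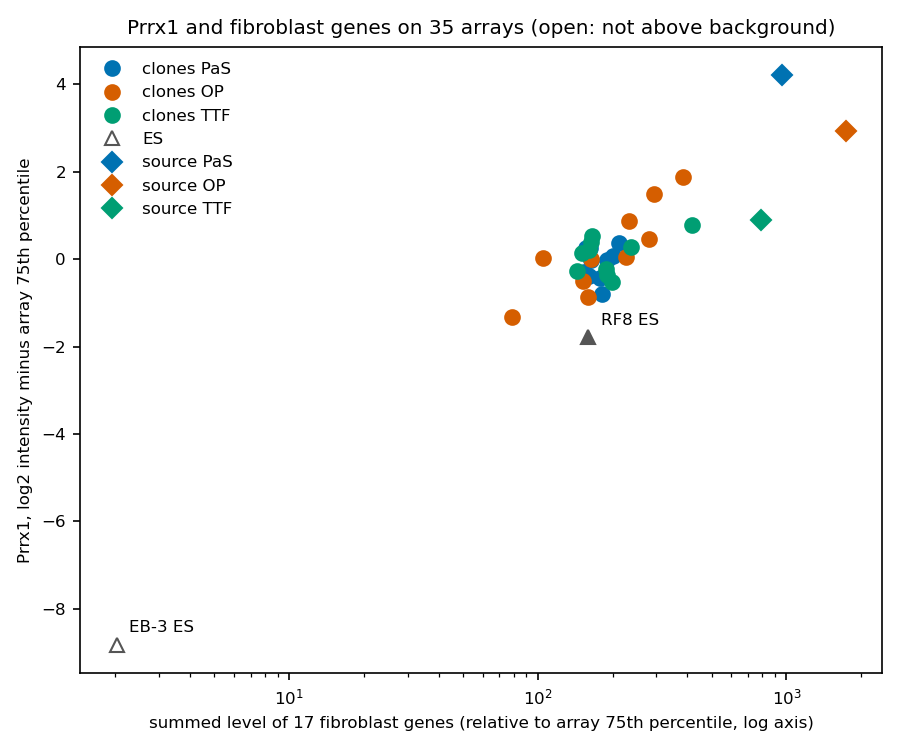
Prrx1 on the y axis (log2 intensity relative to the array's 75th percentile) against the summed level of 17 fibroblast genes on a log x axis, 1 point per array. Circles are clones, diamonds source cells and triangles ES arrays, the open one not above background. EB-3 lies at the lower left at 2.03 and -8.82, and RF8 among the clones on the x axis but below all 30 on the y axis. The sum weighs the brightest genes most, which in RF8 was S100a4.

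Tbx15 was -4.85 in EB-3 and -2.51 in RF8. The clones exceeded the ES arrays by 1.95 (limma adjusted p = 0.00164), and without EB-3 by 0.78 (0.337), which ended the call. Meis1 was -6.39 in EB-3 and -1.31 in RF8, 33.6-fold apart. In 4F-PaS-iPS it was -1.70, -1.47, -0.73, -2.43 and -1.46, in 4F-OP-iPS -1.97, -0.37, -1.41, -0.98 and -2.06, and in 3F-OP-iPS -1.63, -1.52, -2.72, -1.96 and -1.82. All 3F-PaS-iPS clones (-0.99 to -0.18) and all 4F-TTF-iPS clones (-1.08 to -0.77) lay above RF8, all 3F-OP-iPS clones lay below it, and 3F-TTF-iPS clones spanned -1.73 to -0.42. The clones were 2.63 higher than both together (limma adjusted p = 0.000727) and 0.09 higher than RF8 (0.899). For Tbx15 and Meis1 the call thus rested on EB-3. Meis2 was -0.29 in EB-3 and 2.52 in RF8, and the difference of 0.84 was not called (limma adjusted p = 0.153). The third of its probes was -3.08 in EB-3 and 0.77 in RF8, and there the clones were lower and called (-2.14, limma adjusted p = 0.0124). Prrx2 (0.66 in EB-3 and 1.69 in RF8) differed from the clones by 0.20 (limma adjusted p = 0.709) and Emx2 (-5.06 and -3.40) by 0.50 (0.346).

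Among the related genes, few were called between clones. No gene of the 3 lists was called between PaS-iPS, OP-iPS and TTF-iPS clones or between 3F and 4F PaS-iPS clones. Without c-Myc, 2 of 10 tested TALE partners were higher in OP-iPS, where 4.51% of all probes were called, Pknox2 (1.62, limma adjusted p = 0.0323) and Pbx4 (1.12, 0.00567), and Pknox2 was also higher in TTF-iPS (1.59, 0.0306), where 5.77% were. Of 17 limb patterning genes, Tbx3, a T-box repressor that is also active in ES cells, was higher in 3F than in 4F OP-iPS clones (2.18, limma adjusted p = 0.017), and its interaction of OP against PaS was called (3.22, 0.0484). In TTF-iPS Lmx1b, the dorsal limb gene, was higher without c-Myc (1.17, limma adjusted p = 0.0252), and the T-box genes Tbx18 (-1.73, 0.0221) and Tbx2 (-1.49, 0.026) were lower. The counts of limb patterning genes, 1 of 17 in OP-iPS and 3 of 17 in TTF-iPS, stand beside those same shares. None of these list calls held with slide as a random block, where each difference kept its direction. The differences were 1.23 for Pbx4 (limma adjusted p = 0.0518), 1.52 and 1.27 for Pknox2 in OP-iPS and TTF-iPS (0.181 and 0.49), 2.08 for Tbx3 (0.12) and 3.11 for its interaction (0.0542). For Lmx1b, Tbx18 and Tbx2 they were 1.06, -1.60 and -1.21 (limma adjusted p = 0.358, 0.394 and 0.422). With slide as a fixed term Tbx2 changed sign (0.51, limma adjusted p = 1). Without the 4 clones with low pluripotent markers the calls of Pbx4, Pknox2 and Tbx3 were also lost (limma adjusted p from 0.0582 to 0.733), while those of Lmx1b, Tbx18 and Tbx2 held (0.0154, 0.0205 and 0.0452). That of Tbx18 was lost without the 3 clones with dim Nanog (0.0628). With normexp the calls of Tbx3 in OP-iPS and Tbx2 in TTF-iPS held and the others were lost, with Pbx4 at 0.90 (under 2-fold, limma adjusted p = 0.0223), Pknox2 at 0.54 and 0.50 (0.338 and 0.374), Tbx18 at -0.76 (0.241), Lmx1b at 0.24 (0.834) and the Tbx3 interaction at 3.01 (0.051). With quantile normalization Pknox2 in OP-iPS (limma adjusted p = 0.0623) and Lmx1b (0.0992) were lost.

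Against ES arrays, 8 of 17 limb patterning genes were higher in clones and 2 lower, where 17.2% of all probes were called higher. Among those higher were Grem1 (log2 difference 4.08), Fgf10 (2.62), Tbx18 (2.61) and Tbx2 (2.61), and Fgf8 (-2.60) and Gli3 (-1.29) were lower. Of 12 mesenchyme transcription factors 6 were higher and 0 lower, among them Osr1 (3.77), Sox9 (3.83), Twist2 (3.79) and Runx2 (3.52). The last 3 were not well above background in EB-3, so that these differences depend on the dim values there. Of 10 TALE partners 2 were higher (Meis3, 1.97, and Irx5, 1.73) and 1 lower (Tgif1, -1.16). The median log2 differences of the 3 lists were 0.78, 2.08 and -0.24, against -0.11 over all probes. Many of these calls rested on EB-3. Without EB-3, 6 of the 10 called limb patterning genes (Tbx2, Msx1, Msx2, Gli3, Fgf8 and Fgf10), 1 of the 6 mesenchyme factors (Osr1, 2.01, limma adjusted p = 0.00034) and 1 of the 3 TALE partners (Meis3, 1.70, 0.00858) were still called. Runx2 was -8.69 in EB-3, -1.35 in RF8 and -1.50 on average in the clones, and Sox9 was -7.96 in EB-3 and 0.31 in RF8, so that without EB-3 both differences were below 0 (-0.15 and -0.31). Twist2 was 0.56 and Grem1 0.83 without EB-3 (limma adjusted p = 0.467 and 0.281). Without RF8 the calls of Gli3 and Fgf8 were lost. With normexp those of Tbx18 (0.70), Hand2 (0.08), Twist1 (0.94), Foxc1 (1.18), Foxc2 (0.58) and Irx5 (0.35) were lost, which left 7 of 10, 4 of 6 and 2 of 3. Of these 6 genes, Tbx18, Hand2, Foxc2 and Irx5 were not well above background in EB-3, and Hand2 not in RF8 either. The call of Hand2 was also lost with quantile normalization, with slide as a random block and with the replicate block (limma adjusted p = 0.0697, 0.0782 and 0.11).

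The genes most like each member over the 30 clones were ranked by Pearson's r among the 18662 probes that carried a gene name and were detected in all clones, for the 7 members detected in at least 20 clones. These correlations share the slides, the clone groups and the clones with low markers, and are a description only. For Prrx1 they were Isg15 (r = 0.908), Thy1 (0.901), which is one of the 17 fibroblast genes, and Rhoj (0.899). For Prrx2 they were Brunol5 (0.912), Svop (0.897) and Garnl3 (0.894), and for Tbx15 Rftn1 (0.854), Hdac7 (0.853) and Thtpa (0.850). Meis1 was followed most closely by Arrb1 (0.875), Qk (0.853) and Sema6d (0.844), and Meis2 by Zfp608 (0.858), Kbtbd11 (0.854) and Mex3a (0.846). The highest values for Pitx1, with Rnf43 (0.733), Mfn1 (0.731) and Ndufs3 (0.680), and for Emx2, with Tcf12 (0.744), 2310014D11Rik (0.737) and Antxr1 (0.725), were lower than for the other 5. No member was among the 3 nearest genes of another member.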

How the data were processed

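RNA of 35 samples, treated with DNase, was labelled with Cy3 and hybridised to 1-colour Agilent mouse arrays. The deposited scanner files hold the processed intensity of each spot (gProcessedSignal), which Feature Extraction (10.5.1.1, 10.7.3.1 or 9.5.3.1) had background-corrected, and the authors' value table holds log2 values that are centred on the median of each probe. Here each log2 intensity less its array's 75th percentile was used, control spots and 54 to 152 outlier spots per array were left out, and spots of a probe were averaged. These values and the authors' table correlated at 0.99997 or higher. Of all probes, 56.56% to 71.14% were well above background on an array, and the number of arrays limits the precision.

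Clones and ES arrays (7 groups) were fitted with limma 3.58.1 in R 4.3.3, over 27623 probes well above background on every array of a group. A call needed a 2-fold difference and a p under 0.05 after Benjamini-Hochberg adjustment over all of them. Sources, with 1 array each, were described without a test. A fold against a group not well above background is a bound ("at least"), set against the higher of that group's signal and the lowest signal above background on its arrays. A summed level is the sum of linear intensities relative to the percentile. The fit was tested on simulated data. The members, the lists and the tests were chosen with earlier results of these data known. All 10 members are named. List genes are named where they were called between clone groups or differed by at least 8-fold between sources, at most 4 per list and comparison. No label says that clones came from separate animals, so p-values measure only the spread between clones. Alternatives were the background correction, quantile normalization, the authors' table, the filter, a floor for dim signals, the next probe, no fold minimum, slide and clone number as blocks, and leaving out each array. Leaving out the clones with low pluripotent markers was chosen after seeing the data. Clone numbers did not pair the groups. Promoters are from RefSeq (GRCm38.p6).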

Additional observations from a re-analysis of the deposited data

Results flagged for a closer look

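In 60 groups of 5 clones, 1 for each member and clone group by the representative probe, a clone that stood far from the other 4 was looked for, and 3 were found. Chance gives about 1 in 20. Tbx15 in 3F-PaS-iPS #3 was -2.757, below the other 4 clones at -2.286 to -2.157. Tbx4 in 3F-PaS-iPS #1 was -6.917, with the others at -8.678 to -8.331, and none of the 5 was well above background. Tbx5 in 4F-TTF-iPS #4 was -5.465, with the others at -6.534 to -6.261, and none of these was well above background either.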

How the results depend on the processing

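For each comparison the number of the 10 members called was recomputed. No difference of a member with an unadjusted p under 0.05 on its representative probe changed sign in another fit. This does not cover the third Meis2 probe, on which clones against ES turned from 0.84 to -2.14 (limma adjusted p = 0.0124). Nor does it cover the 1 slide that held both PaS-iPS and TTF-iPS clones, where the Pitx1 difference turned from -0.73 to 0.77. Of 50 differences between clone or ES groups in the 5 members with a next tested probe, 6 had the opposite sign on it, all of Meis1 or Emx2 and 0 of them with an unadjusted p under 0.05 on either probe. Differences of a source from another source or from its clones turned on another probe for Meis1, Meis2, Prrx1 and Emx2. PaS-iPS against OP-iPS, 1 as reported, became 0 with normexp background correction and without the 3 or 4 clones with low pluripotent markers, and 2 with slide as a random block or a fixed term. 3F against 4F in OP-iPS, 1, became 0 without the 4 clones. 3F against 4F in TTF-iPS, 1, became 0 with normexp, with slide as a random block or a fixed term, and without the 3 or 4 clones. The interaction of OP against PaS, 0, became 1 with slide as a random block. Clones against ES, 4, were 3 with normexp and 6 without the filter on dim probes. With normexp PaS exceeded TTF for 6 members in place of 10, and lay above all its clones for 4 in place of 8 and below for 2 in place of 1, while TTF lay above its clones for 1 in place of 2 by the next probe. Leaving out 1 array at a time gave 0 to 2 for PaS-iPS against OP-iPS, 0 for PaS-iPS against TTF-iPS, 0 to 1 for OP-iPS against TTF-iPS, 0, 1 to 2 and 0 to 1 for 3F against 4F in PaS-iPS, OP-iPS and TTF-iPS, 2 to 5 for clones against ES, and 0 to 1, 0 and 0 for the interactions of OP against PaS, TTF against PaS and TTF against OP. The cause was not tested. With a fixed slide term, PaS-iPS against OP-iPS, 3F against 4F in TTF-iPS and the interaction of OP against PaS could be fitted, and the other comparisons could not.

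Clone numbers are names only. Of 75 same-numbered pairs from different groups, 16 correlated above 0.1 (median -0.00041), so the numbers did not pair the samples, and the replicate block kept every count of members called (1, 0 and 0 between sources, 0, 1 and 1 for 3F against 4F, 4 against ES). Over all probes the calls between PaS-iPS and OP-iPS were 443, and 467 with the replicate block, 419 with slide as a random block, 277 with slide as a fixed term, 163 with normexp, 15 without the 3 clones with dim Nanog and 345 without all 4 clones with low pluripotent markers. For 3F against 4F they were 1246 in OP-iPS and 1595 in TTF-iPS, and 168 and 7 with slide as a random block. With quantile normalization the calls of 3F higher and lower were 728 and 355 in OP-iPS, against 1087 and 159, and 908 and 842 in TTF-iPS, against 1096 and 499. Genes that were not well above background, among them Tbx4, Tbx5 and Shox2 in most clones, carry no order among themselves.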

Other observations

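Tbx5 in 3F-TTF-iPS #3 was -1.10 on the first probe, with the next clone of its group at -4.90, and was not well above background on the second probe, which was above background in 0 of 30 clones. This clone was picked out after its values were seen.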
